A study of Mus musculus with 28 samples.

Results

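Transcripts of 10 circadian clock genes were examined in livers of mice that overexpress SIRT6, a NAD-dependent protein deacylase, and in wild type (WT) mice. The genes were Arntl, Clock, Per1, Per2, Per3, Cry1, Dbp, Tef, Nr1d1, and Nr1d2. They were taken by gene symbol and were 10 of the 49585 genes in the table. All 10 passed the filter on low counts, a mean normalized count of at least 0.5, and so were among the 21583 genes tested. The 28 livers came from 4 groups of 7 mice, namely WT males, SIRT6-tg males, WT females, and SIRT6-tg females. All mice were C57BL/6JOlaHsd, were fed standard chow, and were 5 to 7 months old by their labels. The SIRT6-tg mice came from a single transgenic line, and WT and transgenic littermates were housed together. According to the methods, food was withdrawn during the day and livers were collected within a fixed window of the afternoon, with the aim of avoiding circadian effects. The collection time of each mouse is not given in the sources used here, so differences between mice in collection time and differences between them in clock state cannot be told apart.

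The mammalian clock is a loop of transcription factors that runs in nearly every cell, including hepatocytes. CLOCK and BMAL1, the product of Arntl, bind E-box sequences as a dimer and activate the Per, Cry, Nr1d1, Nr1d2, Dbp, and Tef genes. PER and CRY proteins then inhibit this dimer, and REV-ERB proteins, the products of Nr1d1 and Nr1d2, bind RORE sequences (also called RRE) and repress Arntl, Clock, and Cry1. DBP and TEF are PAR bZIP factors that bind D-box sequences and carry the rhythm to genes of metabolism. In the liver of mice, which are active at night, Arntl transcripts are known to decline through the light phase, while those of Nr1d1, Dbp, and the Per genes reach their maxima in turn during the light phase and around its end. SIRT6 is known to bind the CLOCK and BMAL1 dimer in mouse liver.

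Total counts per library ranged from 18758863 to 35393069, and TMM factors from 0.821 to 1.17, with the factors of all 7 male WT libraries above those of all 7 male SIRT6-tg libraries. The median normalized count of Sirt6 was 72.9 in male WT, 7150 in male SIRT6-tg, 66.8 in female WT, and 781 in female SIRT6-tg mice, and every SIRT6-tg library lay above every WT library of its sex. The transgene was therefore read in all 14 libraries labelled as transgenic, at a higher level in males. Summed counts of 8 hepatocyte markers were between 2600000 and 5090000 in every library, far above those of any other marker list. Between male SIRT6-tg and WT mice, edgeR called 4 of 8 hepatocyte markers and 1 of 3 blood markers higher, and 6 of 6 macrophage, 6 of 6 T cell, 3 of 4 B cell, and 3 of 4 endothelial and stellate markers lower, with median log2 fold changes of 0.38, 0.25, −1.29, −2.38, −0.95, and −0.38. Between female genotypes edgeR and DESeq2 each called 0 of the 31 markers, with 6 at an unadjusted p under 0.05. Summed T cell markers (6 of 6 measured) were 297 to 907 in male WT, 102 to 153 in male SIRT6-tg, 103 to 354 in female WT, and 121 to 246 in female SIRT6-tg mice. In whole liver, fewer cells of a type and less RNA per cell cannot be told apart.

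Levels between genes were compared as normalized count per kilobase of exon. Averaged over the 28 mice, Dbp was the highest at 1150 ± 329 (SD, n = 28), ahead of Nr1d1 at 804 ± 236, Tef at 689 ± 163, and Nr1d2 at 632 ± 81.8 per kilobase. The Per genes were lower, with 119 ± 52.6 for Per1, 95.9 ± 37.6 for Per3, and 87.1 ± 29.8 for Per2 per kilobase. Clock at 67.1 ± 22.2 and Cry1 at 55.3 ± 11.8 per kilobase followed, and Arntl was the lowest at 7.98 ± 4.99. Only 2 steps in this order separated the genes in all mice, that from Nr1d2 to Per1 and that from Cry1 to Arntl, which held in 28 of 28 mice without overlap of the ranges. Every other pair of neighbours overlapped. Dbp was above Nr1d1 in 21 mice, and Per2 above Clock in 16 mice. Arntl was also the member with the fewest reads, 16 to 157 raw counts per library, whereas Tef had 1750 to 7256. Some exon sequence is shared with genes on the opposite strand, 18% of the exon length of Dbp with Sphk2 and 8.55% of that of Nr1d1 with Thra. For Tef it is 2.45% with Gm17597, and for Arntl 0.439% with Gm45355. The strand setting of the counting is not given in the sources used here, so the counts of these genes over the shared stretches are uncertain.

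The promoters of the members were read to show where the binding sequences of the loop itself occur. RefSeq windows (GRCm38.p6) from 250 bases before to 50 bases after a transcription start were found for 9 of the 10 members, 14 windows in all, and none was found for Per2. The letters searched on both strands were CACGTG (E-box), CACGTT (E′-box), TTATGTAA (D-box), and TAGGTCA and TAGGTTA (2 forms of the RRE). An E-box was found in 3 of 9 members, an E′-box in 2, a D-box in 1, and each form of the RRE in 1. Counted by window, an E-box was in 4 of 14, an E′-box in 2, a D-box in 1, TAGGTCA in 1, and TAGGTTA in 2. The 2 windows with TAGGTTA were overlapping windows of Arntl that held the same site. Of all 32851 windows, 7.15% held an E-box, 4.68% an E′-box, 0.938% a D-box, 2.61% TAGGTCA, and 1.44% TAGGTTA. The stretches around the matches follow, 5′ to 3′ on the strand of the gene with the matches in capitals. They are given because Arntl, the member that carried the RRE letters, and the members that carried E-box or D-box letters are the genes whose levels are compared below.
Arntl, chr7:113207494-113207523, plus strand, TAGGTTA: tggtcggaaagTAGGTTAgtggtgcgacat
Arntl, chr7:113207530-113207559, plus strand, TAGGTCA: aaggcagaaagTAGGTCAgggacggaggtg
Per1, chr11:69098763-69098808, plus strand, E-box: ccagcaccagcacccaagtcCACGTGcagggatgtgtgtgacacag
Per3, chr4:151044796-151044890, minus strand, D-boxes: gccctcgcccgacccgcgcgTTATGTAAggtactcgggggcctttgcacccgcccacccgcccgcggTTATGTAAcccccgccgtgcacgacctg
Cry1, chr10:85185089-85185153, minus strand, E′-box and E-box: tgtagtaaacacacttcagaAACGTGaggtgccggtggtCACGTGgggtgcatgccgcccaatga
Nr1d1, chr11:98775380-98775425, minus strand, E′-box: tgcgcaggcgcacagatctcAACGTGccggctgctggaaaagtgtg
Tef, chr15:81802526-81802571, plus strand, E-box: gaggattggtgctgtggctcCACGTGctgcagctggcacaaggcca
Tef, another start, chr15:81811256-81811301, plus strand, E-box: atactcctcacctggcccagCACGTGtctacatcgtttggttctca
In Arntl the pair of RRE forms lay close together, the first across one annotated start and the second 31 bases into that transcript. In Per3 the D-boxes began 205 and 158 bases before the start. The Cry1 and Nr1d1 E′-boxes read CACGTT on the opposite strand, 79 and 28 bases before the start. A match is a description of the letters, and windows without one say nothing about binding of the factor elsewhere.

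Of the activators, Arntl varied most. Its normalized count (lowest, median, highest of 7 mice) was 31.8, 34.2, and 64.2 in male WT and 17.6, 43.8, and 102 in male SIRT6-tg mice. In females it was 30.2, 76.9, and 125 in WT and 24.2, 65.4, and 188 in SIRT6-tg mice. All 4 groups overlapped, and the highest mouse of all had 10.7 times the count of the lowest. The normalized count of Clock was 585, 737, and 1020 in male WT, 533, 828, and 1080 in male SIRT6-tg, 481, 1070, and 1500 in female WT, and 511, 1170, and 1540 in female SIRT6-tg mice. The groups overlapped here too, with a 3.21-fold range over all mice.

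The repressors of the PER family spread nearly as widely. Per1, which responds to light and to glucocorticoids as well as to the clock, had normalized counts of 353, 797, and 1140 in male WT, 335, 618, and 984 in male SIRT6-tg, 215, 797, and 1100 in female WT, and 170, 532, and 1070 in female SIRT6-tg mice. Per2 had 257, 535, and 704 in male WT, 322, 645, and 791 in male SIRT6-tg, 288, 487, and 716 in female WT, and 83.7, 487, and 650 in female SIRT6-tg mice. Per3 had 335, 924, and 1470 in male WT, 492, 935, and 1200 in male SIRT6-tg, 487, 953, and 1270 in female WT, and 189, 1120, and 1640 in female SIRT6-tg mice. The groups overlapped for each of these genes, and female SIRT6-tg mouse 1 was the lowest of all 28 mice for all 3. Cry1, which encodes a repressor of CLOCK and BMAL1, was narrower, with medians of 156, 208, 182, and 189 normalized counts in the same order of groups and a 2.29-fold range from 124 to 283.

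The output factors and the REV-ERB genes were the most abundant members. Dbp had normalized counts of 2270, 3280, and 4210 in male WT, 3220, 4170, and 5190 in male SIRT6-tg, 2070, 3220, and 3730 in female WT, and 1020, 2820, and 5150 in female SIRT6-tg mice. Tef had 2940, 4760, and 6890 in male WT, 4320, 6300, and 7260 in male SIRT6-tg, 4360, 5120, and 7170 in female WT, and 2090, 5430, and 6970 in female SIRT6-tg mice. In males, 3 transgenic mice exceeded all WT mice for Dbp and 1 did for Tef, and the ranges of the groups overlapped for both. Nr1d1 had 1060, 2090, and 3250 in male WT, 1480, 2330, and 3040 in male SIRT6-tg, 1260, 3010, and 3470 in female WT, and 1790, 3290, and 3580 in female SIRT6-tg mice. Nr1d2 was the steadiest member, between 2200 and 4080 normalized counts in all mice, a 1.85-fold range, with group medians from 3240 to 3510.

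**Figure D1:**
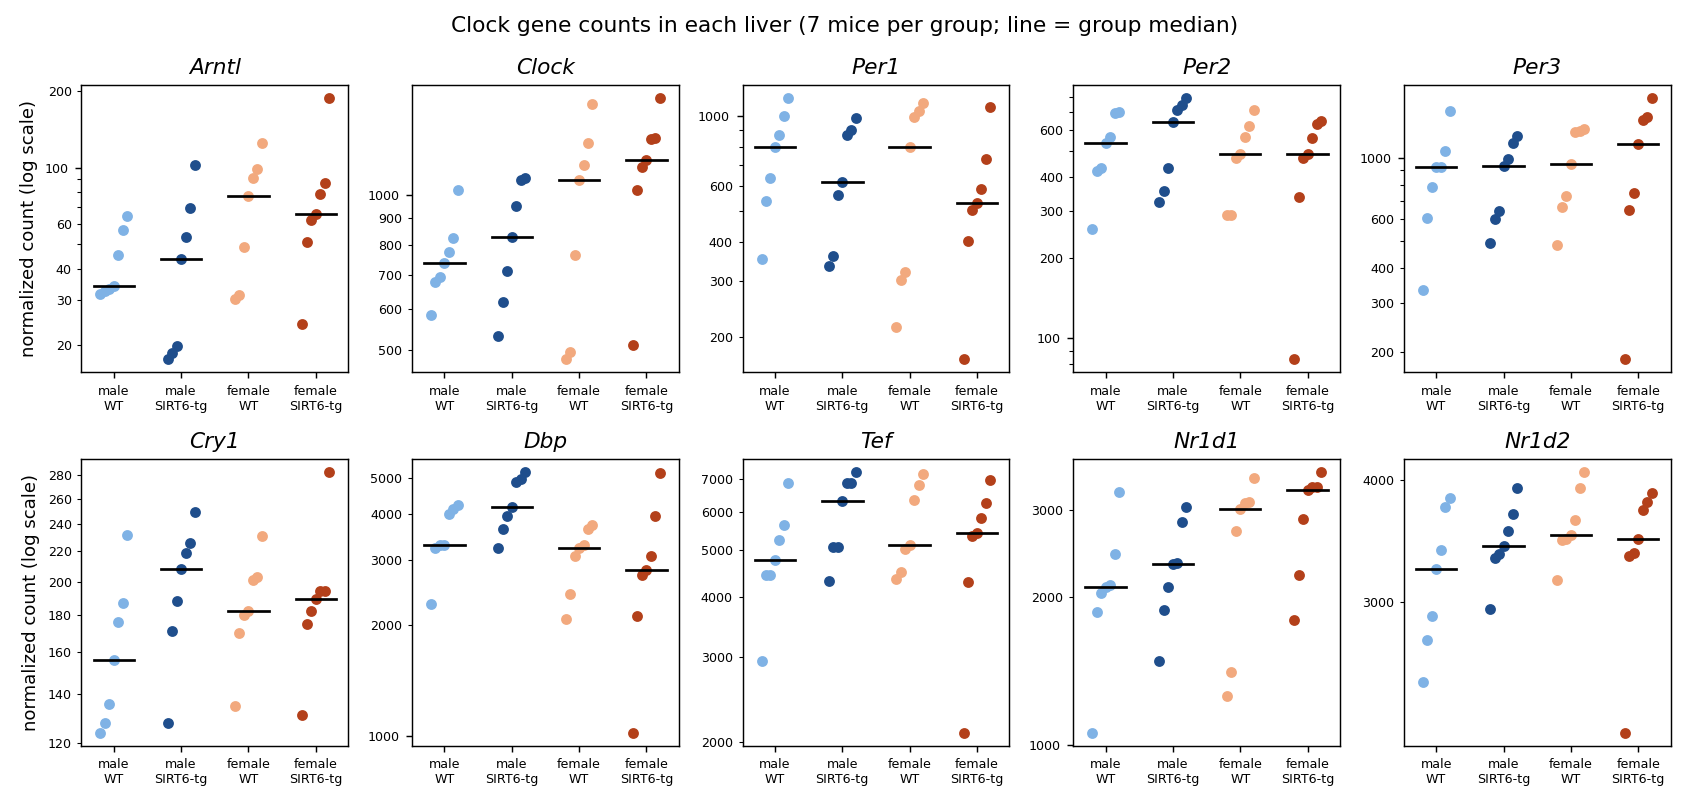
Normalized counts of the 10 clock genes in each liver (vertical axis, log scale, 1 panel per gene) by group (horizontal axis, 7 mice each, points sorted within a group), with a line at each group median. The groups overlap in every panel, and Arntl ranges from 17.6 to 188 while Nr1d2 ranges from 2200 to 4080.

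The first comparison asked whether SIRT6 overexpression was accompanied by another level of the clock transcripts. In males edgeR's quasi-likelihood test over all genes called none of the 10 members (Benjamini-Hochberg adjusted p between 0.204 and 0.975). Of all tested genes 20.7% passed the test in this comparison (either direction). A list of 10 genes is too short to set the members apart from that share. The number of members with an unadjusted p under 0.05 was also 0, and DESeq2 called 0. The median log2 fold change (SIRT6-tg minus WT) of the members was 0.12, against 0.06 over all tested genes. The lowest adjusted p was that of Cry1, with a log2 fold change of 0.29 (95% interval −0.03 to 0.61, edgeR adjusted p = 0.204). Dbp had 0.30 (−0.14 to 0.73) and Tef 0.28 (−0.11 to 0.67). Scaled by total count alone, the median over all tested genes was −0.22, and the values of Arntl, Clock, Per2, Nr1d1, and Nr1d2 below turned negative with it. The activators were closer to 0, with 0.12 (−0.71 to 0.95) for Arntl and 0.12 (−0.34 to 0.59) for Clock. For the PER genes the values were −0.21 (−0.97 to 0.56) for Per1, 0.15 (−0.47 to 0.78) for Per2, and −0.03 (−0.72 to 0.67) for Per3. The REV-ERB genes had 0.11 (−0.34 to 0.56) for Nr1d1 and 0.12 (−0.10 to 0.34) for Nr1d2. The width of the interval followed the spread between mice, so that it was widest for Arntl, Per1, Per3, and Per2 and narrowest for Nr1d2.

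In females, too, none of the 10 members was called between SIRT6-tg and WT mice, and all had an edgeR adjusted p of 1. Here 0.0278% of all tested genes passed, and the number of members with an unadjusted p under 0.05 was 0, as was the number called by DESeq2. Log2 fold changes ran from −0.25 (−1.02 to 0.52) for Per1 to 0.24 (−0.22 to 0.71) for Clock, with a median of 0.00 over the members and 0.00 over all tested genes. Arntl had 0.14 (−0.65 to 0.93), which became −0.22 without female SIRT6-tg mouse 1, the mouse with the highest Arntl count. The genotype effect was also compared between the sexes as an interaction in the same fit. None of the 10 members passed, against 5.05% of all tested genes, with an edgeR adjusted p of at least 0.446 and 0 members with an unadjusted p under 0.05, and DESeq2 called 0. The largest value was that of Tef, 0.40 (−0.15 to 0.95).

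Sex was compared within each genotype. Between male and female WT mice none of the 10 members was called (edgeR adjusted p of at least 0.242, DESeq2 0 called, 0 with an unadjusted p under 0.05). Of all tested genes 12.4% were called, so 0 of 10 lay near the background. The largest difference was in Arntl, at −0.75 (male minus female, log2, −1.56 to 0.06, edgeR adjusted p = 0.242). Between male and female SIRT6-tg mice none of the 10 passed either, against 23.1% of all tested genes, and DESeq2 called 0. In this comparison 1 member, Dbp, had an unadjusted p under 0.05, with a log2 difference of 0.53 (0.09 to 0.96, edgeR adjusted p = 0.0723). Arntl had −0.78 (−1.59 to 0.04) and Clock −0.46 (−0.93 to 0.01). These values depended on single mice. Without male SIRT6-tg mouse 6 Arntl was called, without female SIRT6-tg mouse 6 Clock and Dbp were, and without female SIRT6-tg mouse 7 Dbp was. Without female SIRT6-tg mouse 1 the Arntl difference was −0.42. The 4 two-group comparisons share samples, each group entering a pair of them.

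**Figure D2:**
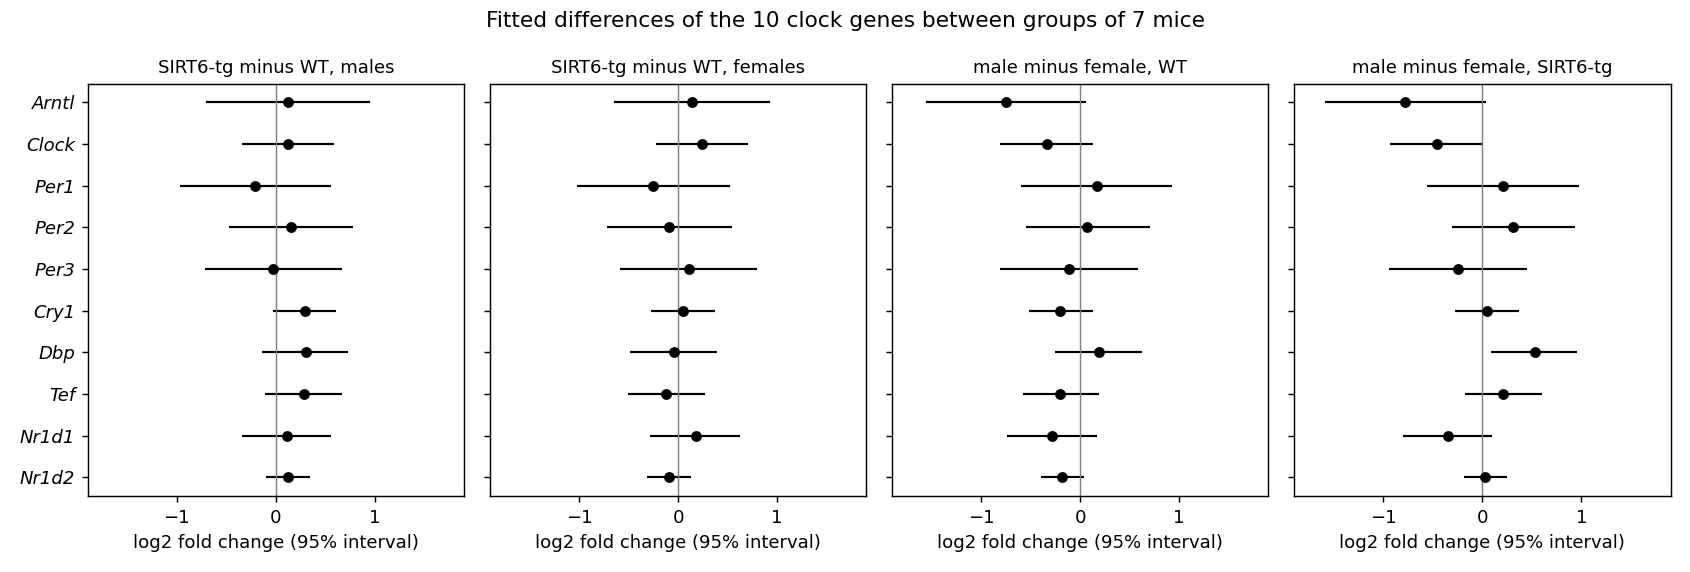
Fitted log2 fold changes of the 10 clock genes (horizontal axis) with 95% intervals as bars, for SIRT6-tg against WT mice in each sex and for males against females in each genotype. All intervals include 0 except that of Dbp between male and female SIRT6-tg mice, 0.09 to 0.96.

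The other genes of the loop and the genes that the liver clock is known to drive were counted from fixed lists. Among 16 other clock genes, none was called by edgeR between SIRT6-tg and WT mice of either sex, although 4 in males and 1 in females had an unadjusted p under 0.05. DESeq2 called Timeless in males. Of 20 clock output genes, 2 were called in males, against 20.7% of all tested genes. A list of 20 genes is too short to be set apart from that share. Of the 2, 1 was higher and 1 lower in SIRT6-tg mice. The higher one, Tars, a tRNA synthetase gene, rose from a median of 2640 normalized counts in WT to 3840 in SIRT6-tg mice (log2 fold change 0.53, standard error 0.13, edgeR adjusted p = 0.00303), and the ranges of 2280 to 3290 and 3100 to 4930 overlapped. The shifts of the cell type markers between male WT and SIRT6-tg mice given above lie beside this value, and their part in it was not tested. The call of Tars was lost when libraries were scaled by total count alone (0.24, edgeR adjusted p = 0.222). The other 18 output genes were not called in males. In females edgeR called 0 of 20, with 3 at an unadjusted p under 0.05, and DESeq2 called Cyp7a1 and Elovl3. For the difference of the genotype effect between the sexes, edgeR called 0 of the 36 listed genes, with 4 at an unadjusted p under 0.05, and DESeq2 called Cyp7a1.

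The same lists were counted between the sexes. Between males and females, edgeR called 3 of the 16 other clock genes in each genotype, and 3 of the 20 output genes in WT and 6 in SIRT6-tg mice. Of all tested genes 12.4% in WT and 23.1% in SIRT6-tg mice were called, so these counts lay near the background. Bhlhe41, which encodes the E-box repressor DEC2, was higher in males, with 277 to 547 normalized counts in male WT and 88.6 to 225 in female WT mice (log2 difference 1.46, edgeR adjusted p = 1.21e-04), and 350 to 576 against 45.4 to 225 in SIRT6-tg mice (1.78, adjusted p = 5.56e-06). The sexes did not overlap in either genotype. Fbxl21, an F-box protein that acts on CRY, was lower in males in both genotypes, by −0.59 (adjusted p = 0.0014) and −0.81 (adjusted p = 1.77e-05). Csnk1d, a kinase of PER proteins, was higher in male WT mice by 0.25 (adjusted p = 0.0369). Of the output genes, Elovl3, an elongase of very long fatty acids, had the widest difference, with 1170 to 5020 normalized counts in male and 4.32 to 51.6 in female WT mice (6.27, adjusted p = 8.64e-11) and 5.41 in SIRT6-tg mice (adjusted p = 2.41e-10). Avpr1a, a vasopressin receptor, was lower in males, by −0.75 (adjusted p = 0.0216) and −0.92 (adjusted p = 0.00293). Tars was lower in male WT mice by −0.42 (adjusted p = 0.0286). In SIRT6-tg mice, Tspan4 was higher in males (0.78, adjusted p = 4.49e-04), and the nuclear receptor gene Nr1i3 (−0.77, adjusted p = 0.00529) was lower. Cyp7a1, the rate-limiting enzyme of bile acid synthesis, was also lower in males (−1.05, adjusted p = 0.0474), a call that was lost in 22 of 36 settings (edgeR or DESeq2 adjusted p up to 0.174, without female SIRT6-tg mouse 7). The calls of Csnk1d, Tars, and Avpr1a between WT mice were lost in 10, 8, and 5 of 36 settings (edgeR adjusted p up to 0.0933, 0.248, and 0.081 over all settings). These settings include some with 1 mouse left out. That of Csnk1d was lost without male WT mouse 4, 5, or 7 or female WT mouse 1, 2, 5, or 6, that of Tars without male WT mouse 1, 3, 4, or 7 or female WT mouse 4, 5, or 7, and that of Avpr1a without male WT mouse 4 or 6 or female WT mouse 5. Tspan4 and Nr1i3 did not pass between WT mice, except Tspan4 when scaled by total count alone or without female WT mouse 2 and Nr1i3 without male WT mouse 5, and the interaction did not pass for them.

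Between mice of the same group, the clock genes moved together. The deviation of each mouse from its group mean (log2 CPM) was correlated over the 28 mice for all 45 pairs of members, with permutation of the mice within groups (100000 draws, two-sided, smallest possible p of 1e-05) and adjustment over the 45 pairs. By Pearson's r, 24 pairs passed, 17 positive and 7 negative, and 27 passed by Spearman's rho. The sign was the same in all 4 groups for 21 of the 24 pairs. The 7 negative pairs joined Arntl with Per1, Per2, Per3, Dbp, Tef, and Nr1d2, and Clock with Dbp. A high count of Arntl thus went with low counts of the PER and PAR bZIP genes.

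The single mice show this directly. In male SIRT6-tg mice, the 3 with the lowest Arntl, at 17.6, 18.5, and 19.8 normalized counts, had the 3 highest counts of Per2 (791, 716, and 747), Dbp (4880, 4960, and 5190), and Tef (7260, 6890, and 6890). The mouse of that group with the highest Arntl, at 102, had the lowest Per1, Per2, Per3, Dbp, and Tef. In female WT mice, the 2 with the lowest Arntl (30.2 and 31.5) also had the lowest Clock (481 and 496) and Nr1d1 (1260 and 1410), and the 2 highest counts of Per2 (716 and 623) and Tef (6810 and 7170). Female SIRT6-tg mouse 1 lay at the opposite end, with Arntl at 188, Per1 at 170, Per2 at 83.7, Per3 at 189, Dbp at 1020, and Tef at 2090. Female SIRT6-tg mouse 6 had the lowest Arntl (24.2) and Clock (511) of its group and the highest Dbp (5150).

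The tightest pairs were found among the repressors and output factors. Per2 and Tef had r = 0.97 (rho = 0.96, permutation p = 1e-05, adjusted p = 5.62e-05, r without the 2 mice farthest from the median = 0.94). For each pair, these 2 mice were chosen by the deviations of a single gene. That gene was the earlier of the pair in the order Arntl, Clock, Per1, Per2, Per3, Cry1, Dbp, Nr1d1, Nr1d2, Tef. Per3 and Tef had r = 0.96 (rho = 0.94, permutation p = 1e-05, adjusted p = 5.62e-05, 0.90 without the 2 farthest), and Per2 and Per3 had r = 0.94 (rho = 0.92, permutation p = 1e-05, adjusted p = 5.62e-05, 0.87 without the 2 farthest). Per2 and Tef lie on different chromosomes and share no exon with each other. The activators moved together, with r = 0.81 for Arntl and Clock (rho = 0.80, permutation p = 1e-05, adjusted p = 5.62e-05, 0.82 without the 2 farthest). Against the output factors, Arntl had r = −0.78 with Tef (rho = −0.80, permutation p = 1e-05, adjusted p = 5.62e-05, −0.73 without the 2 farthest) and −0.78 with Dbp (rho = −0.81, permutation p = 1e-05, adjusted p = 5.62e-05, −0.71 without the 2 farthest). With Per2 it had r = −0.75 (rho = −0.78, permutation p = 2e-05, adjusted p = 6.43e-05, −0.72 without the 2 farthest).

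By Pearson's r, Cry1 and Nr1d1 passed with few or none of the other members. Cry1 passed with no other member, and its highest r was 0.41 with Per1 (rho = 0.40, permutation p = 0.0362, adjusted p = 0.0604, 0.47 without the 2 farthest). Nr1d1 passed by Pearson's r only with Clock, at r = 0.69 (rho = 0.76, permutation p = 4.60e-04, adjusted p = 0.00109, 0.63 without the 2 farthest), and had r = 0.39 with Arntl (rho = 0.51, permutation p = 0.0419, adjusted p = 0.0673, 0.57 without the 2 farthest). Of all tested genes, 19.6% had an absolute r above 0.6 with Nr1d1 and 6.98% with Clock. By Spearman's rho the pair of Nr1d1 and Arntl passed as well (permutation test, adjusted p = 0.0188), and its r was 0.60 without female SIRT6-tg mouse 1 alone. Nr1d2, the paralogue of Nr1d1, had r = 0.84 with Per2 (rho = 0.73, permutation p = 1e-05, adjusted p = 5.62e-05, 0.62 without the 2 farthest), whereas Nr1d1 and Per2 had r = 0.09 (rho = −0.22, permutation p = 0.649, adjusted p = 0.701). The latter value became −0.51 without the 2 mice farthest in Per2. Its sign also differed between groups, with 0.62 in male WT and −0.48 in male SIRT6-tg mice. In females it was −0.62 in WT and 0.63 in SIRT6-tg mice. Nr1d1 showed the same split of signs with Per3, Dbp, and Tef, and none of these values within single groups passed after adjustment. Whether Nr1d1 and Nr1d2 differ in their correlation with Per2 was not tested.

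Of the 24 pairs, 22 still passed without the 2 farthest mice. The pair of Arntl and Nr1d2 (r = −0.52) did not, at −0.33, and without female SIRT6-tg mouse 1 alone it was −0.37 (permutation test, adjusted p = 0.0589). Without that mouse the pair of Per1 and Dbp fell from 0.48 to 0.28 (permutation test, adjusted p = 0.228), Arntl and Tef had −0.75, and 27 pairs passed. Within single groups of 7 mice, with the exact permutation test over all pairings of the 7 mice and adjustment over 180 tests, 11 pairs passed in male WT, 21 in male SIRT6-tg, 6 in female WT, and 13 in female SIRT6-tg mice. Whether these numbers differ between groups was not tested.

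**Figure D3:**
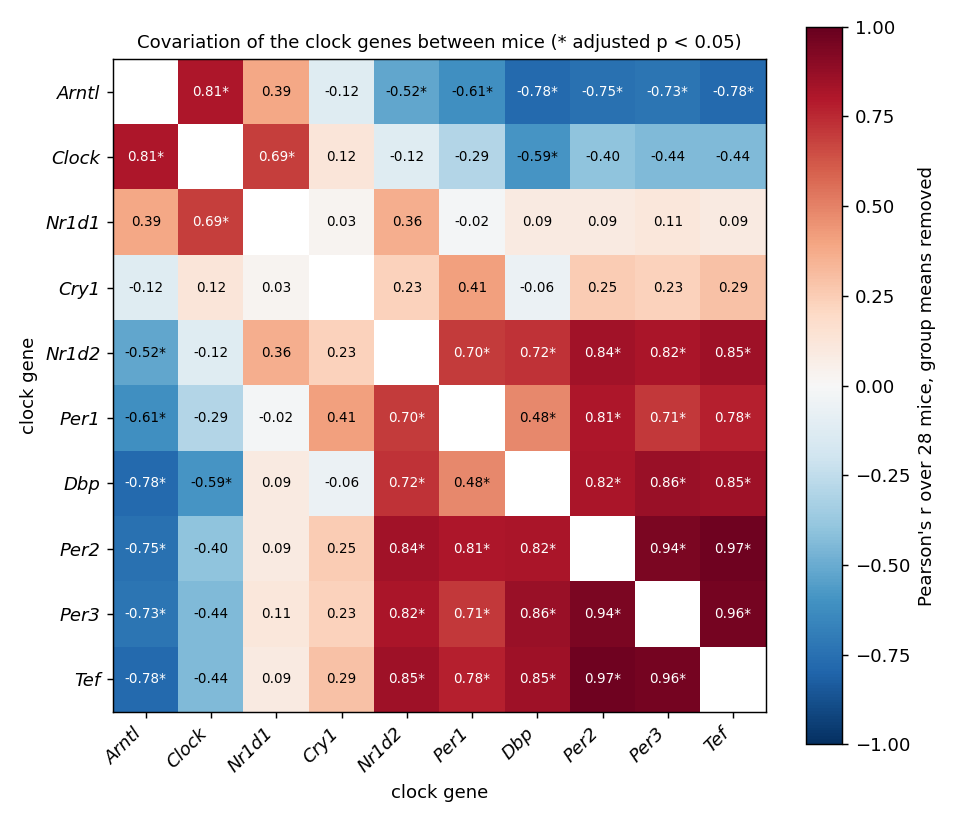
Pearson's r of each pair of clock genes over 28 mice after removal of the group means (colour and printed value, genes on both axes), with an asterisk at an adjusted permutation p under 0.05. Arntl and Clock form one positive block and Per1, Per2, Per3, Dbp, Tef, and Nr1d2 another, with r = −0.78 between Arntl and Tef, and the row of Cry1 holds no asterisk.

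**Figure D4:**
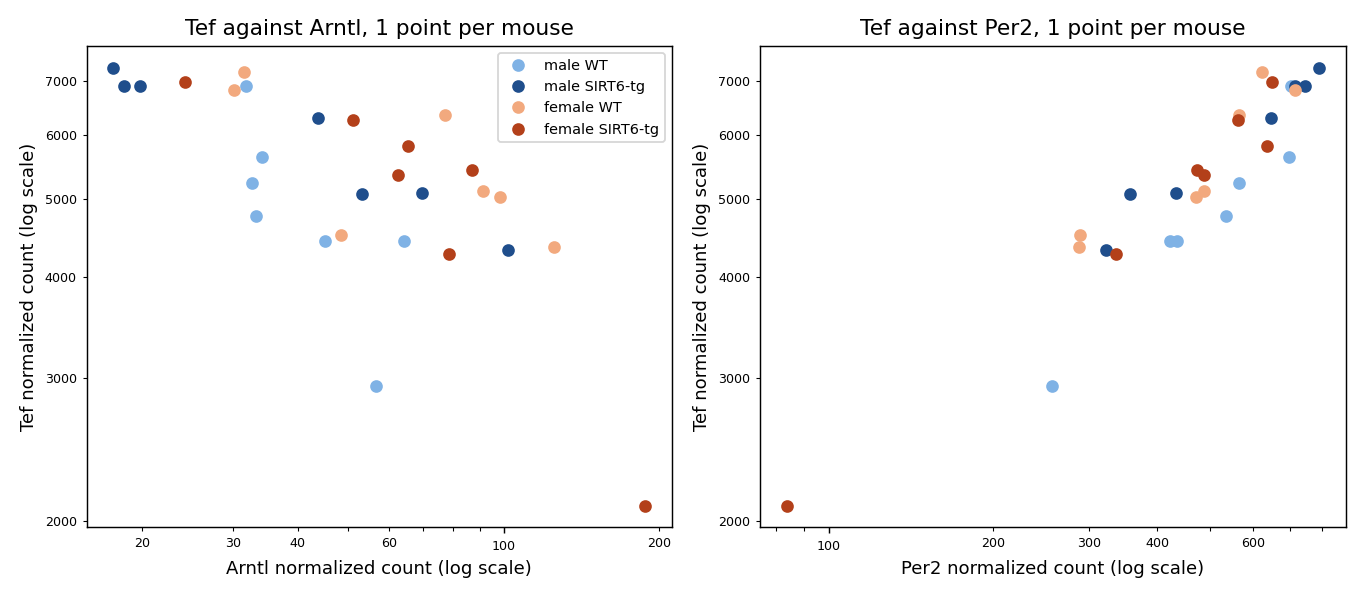
Normalized counts of Tef (vertical axes) against those of Arntl (left) and Per2 (right), log scales, 1 point per mouse coloured by group. Tef falls as Arntl rises and rises with Per2, and 1 female SIRT6-tg mouse at 188 for Arntl, 83.7 for Per2, and 2090 for Tef lies apart from the rest.

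A principal component analysis of the 10 members, with group means removed, described the same structure. Of the variance, 69.6% fell on the first component and 15.8% on the second. Arntl (0.47) and Clock (0.19) had positive loadings on the first component, and Per3 (−0.46), Per2 (−0.44), Per1 (−0.43), Dbp (−0.26), Tef (−0.26), and Nr1d2 (−0.11) negative ones, with Cry1 (−0.05) and Nr1d1 (0.03) near 0. On the second component the highest loadings were those of Nr1d1 (0.56), Clock (0.51), and Arntl (0.47). Scores on the first component, with the group means kept, ran from −1.48 to 1.75 in male WT, −1.86 to 1.51 in male SIRT6-tg, −1.39 to 2.03 in female WT, and −1.60 to 4.65 in female SIRT6-tg mice. The ranges of the groups overlapped. The lowest scores were those of male SIRT6-tg mice 2, 4, and 5, at −1.86, −1.77, and −1.7, below every mouse of the other groups. At the other end, female SIRT6-tg mouse 1 lay apart with the value of 4.65. With each gene scaled to unit SD, the share of the first component was 60.1%.

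The spread of the members was also set beside that of all tested genes. The biological coefficient of variation estimated by edgeR was 0.497 for Arntl, at the 85.5th percentile of all tested genes, 0.478 for Per1 (84.1), 0.433 for Per3 (80.7), and 0.394 for Per2 (77.1). It was 0.202 for Cry1 (40.4) and 0.152 for Nr1d2 (21.8). As a description, the median absolute r of Arntl was 0.73 with the other 9 members and 0.16 with all other tested genes, and 1.33% of all genes had an absolute r above 0.6 with it. For Per2 these values were 0.81, 0.25, and 3.40%, and for Tef 0.78, 0.24, and 2.64%. For Clock they were 0.44, 0.27, and 6.98%, and for Nr1d2 0.7, 0.28, and 6.65%. For Nr1d1 they were 0.09, 0.33, and 19.6%. Its r with Arntl was 0.57 without the 2 mice farthest in Arntl. With Per2 it was −0.51 without the 2 farthest in Per2, and with Per3 −0.48 without the 2 farthest in Per3. The members were not matched to all tested genes by count, and the latter include genes averaging as few as 0.5 normalized counts.

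The genes most like Arntl were ranked by r over the 28 mice among the 10899 protein-coding genes that averaged 50 or more normalized counts, as a description. Those with the highest r were Clpx (0.89), a chaperone subunit of a mitochondrial protease, Lrfn3 (0.88), the tight junction gene Tjp3 (0.87), Chka (0.87), a choline kinase, and Insig2 (0.86), a regulator of sterol synthesis. Those with the lowest r were Nmrk1 (−0.88), a kinase of the NAD precursor nicotinamide riboside, the deubiquitinase gene Usp2 (−0.87), Marveld1 (−0.87), Coq10b (−0.86), and Ciart (−0.86), a repressor of the clock. Within the single groups the r of Clpx lay between 0.82 and 0.95 and that of Nmrk1 between −0.96 and −0.83.

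The fixed lists were then correlated with Arntl in the same way, adjusted over 180 tests that include those with Per2. Here the 2 farthest mice were those farthest in Arntl, or in Per2 for the tests with Per2. Of the 20 clock output genes, 17 passed, 6 positive and 11 negative. The lists were chosen with earlier results of these data known. This permutation test was not run over all genes, so the share of them that would pass is not known. By size alone, 1.33% of all tested genes had an absolute r above 0.6 with Arntl and 3.4% with Per2. Some listed genes passed at an absolute r below 0.6, so these shares do not match the counts from the lists. As a description, the median absolute r with Arntl was 0.7 for the output genes and 0.28 for the other clock genes, against 0.16 for all tested genes. Insig2 (r = 0.86, rho = 0.85, permutation p = 1e-05, adjusted p = 1.29e-04, 0.83 without the 2 farthest) was the highest and Usp2 (r = −0.87, rho = −0.89, permutation p = 1e-05, adjusted p = 1.29e-04, −0.85 without the 2 farthest) the lowest. Tars had r = 0.77. Nampt, which encodes the rate-limiting enzyme of NAD salvage, had r = −0.72 (rho = −0.76, permutation p = 5e-05, adjusted p = 4.09e-04, −0.78 without the 2 farthest). Of the 16 other clock genes, 3 passed. Npas2, a paralogue of Clock, had r = 0.73 (rho = 0.75, permutation p = 1e-05, adjusted p = 1.29e-04, 0.73 without the 2 farthest) at only 0.778 to 40.7 normalized counts. Ciart had r = −0.86 (rho = −0.84, permutation p = 1e-05, adjusted p = 1.29e-04, −0.82 without the 2 farthest). With Per2, Ciart had r = 0.91, and 9 of the 16 other clock genes (5 of these also by Spearman's rho) and 16 of the 20 output genes (16 by Spearman's rho) passed. The median absolute r with Per2 was 0.5 for the other clock genes and 0.64 for the output genes, against 0.25 for all tested genes. In these comparisons with Arntl and Per2, the lists were not matched to all tested genes by count. All tested genes include those averaging as few as 0.5 normalized counts.

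Lists for other influences on these genes were read beside this. With Arntl, 1 of 5 glucocorticoid-responsive genes passed (Tsc22d3, r = −0.47, rho = −0.43, permutation p = 0.011, adjusted p = 0.036, −0.52 without the 2 farthest), 0 of 7 temperature-responsive genes, and 2 of 8 genes of feeding and fasting. The latter were Pdk4 (r = 0.63, rho = 0.63, permutation p = 0.00137, adjusted p = 0.00685, 0.61 without the 2 farthest) and Srebf1 (r = −0.55, rho = −0.58, permutation p = 6.10e-04, adjusted p = 0.00323, −0.51 without the 2 farthest). Tsc22d3 did not pass by Spearman's rho (permutation test, adjusted p = 0.102). With Per2, Rbm3 (r = 0.69, rho = 0.50, 0.55 without the 2 farthest), Hsp90aa1 (r = −0.67, rho = −0.58, −0.61 without the 2 farthest), and Srebf1 (r = 0.58, rho = 0.57, 0.48 without the 2 farthest) passed by both measures. Tat (r = 0.45, rho = 0.42, 0.41 without the 2 farthest) and Pck1 (r = 0.50, rho = 0.41, 0.41 without the 2 farthest) passed by Pearson's r and not by Spearman's rho (permutation test, adjusted p of 0.0983 and 0.111). None of the 8 hepatocyte, 6 T cell, 6 macrophage, 4 B cell, 4 endothelial and stellate, or 3 blood markers passed with Arntl, and their r lay between −0.31 and 0.41. With Per2, 3 of the 6 macrophage markers passed by Pearson's r, Marco (−0.59, rho = −0.56, −0.43 without the 2 farthest), Clec4f (−0.58, rho = −0.46, −0.38 without the 2 farthest), and Adgre1 (−0.51, rho = −0.45, −0.38 without the 2 farthest). By Spearman's rho only Marco passed (permutation test, adjusted p = 0.0155, against 0.0679 for Clec4f and 0.0716 for Adgre1), and the part of these cells in the covariation was not tested. Total count and TMM factor had r of −0.05 and 0.19 with Arntl and did not pass.

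**Figure D5:**
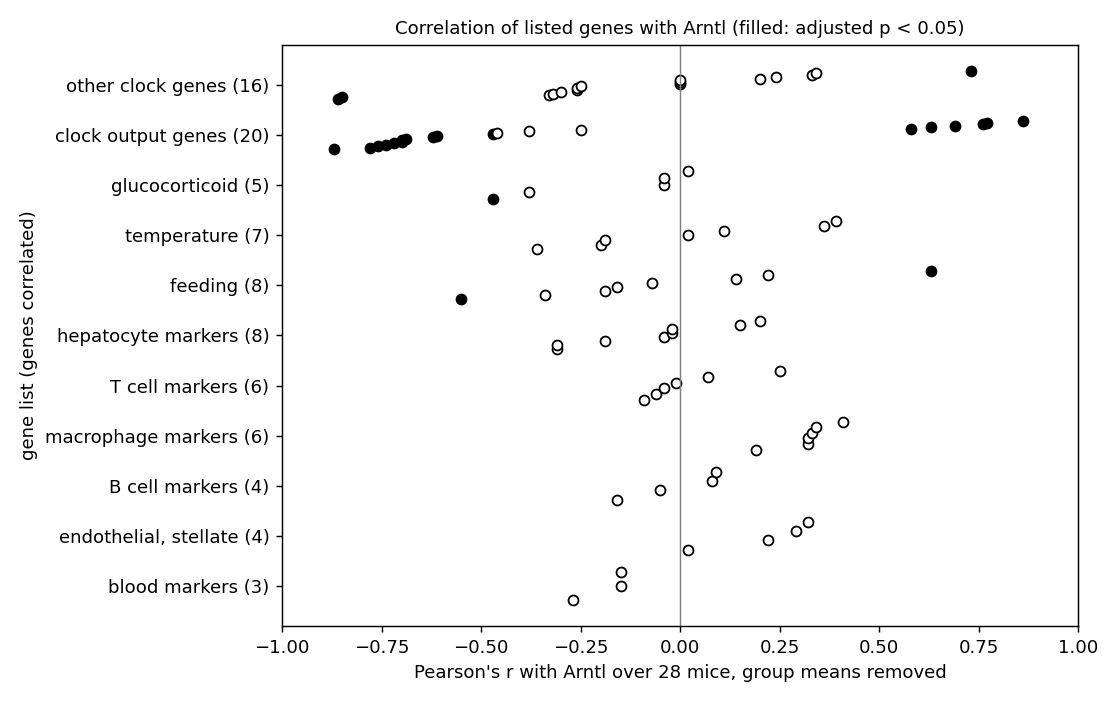
Pearson's r with Arntl over 28 mice, group means removed (horizontal axis), for the genes of 11 fixed lists (vertical axis, number of genes in parentheses), with filled points at an adjusted permutation p under 0.05. In the list of clock output genes 17 of 20 points are filled, and in the 6 lists of cell type markers none is. The test was not run over all genes.

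Finally, the level of Sirt6 was compared with the members among the transgenic mice, since the transgene varied between 5230 and 9470 normalized counts in males and between 432 and 1330 in females. None of the 20 relations, 10 in each sex with 7 mice, passed after adjustment over the 20. The lowest p was that of Clock in males (r = −0.76, rho = −0.71, exact permutation p = 0.045, adjusted p = 0.454), followed by Nr1d1 in males (r = −0.76, rho = −0.61, exact permutation p = 0.0454, adjusted p = 0.454). In females the sign was the same for Clock (r = −0.65, rho = −0.57, exact permutation p = 0.0956, adjusted p = 0.587) and Nr1d1 (r = −0.65, rho = −0.36, exact permutation p = 0.117, adjusted p = 0.587). Over all 28 mice with group means removed, Sirt6 had r = −0.21 with Arntl (rho = −0.16, permutation p = 0.326, adjusted p = 0.489, −0.25 without the 2 farthest).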

How the data were processed

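RNA of 28 mouse livers was sequenced as single-end reads. According to their methods and the labels, the authors used STAR 2.5.0a for alignment to mm10 and HTSeq to count uniquely mapped reads on Gencode genes, and they deposited raw counts per gene without normalization. Symbols, coordinates and exon lengths came from Gencode vM21 (GRCm38, the same build), which named 49326 of 49585 genes. The members and gene lists were chosen with earlier results of these data known. Counts were scaled by TMM and tested with edgeR 4.0.16 in R 4.3.3 (robust quasi-likelihood test, 4 groups in 1 fit, no covariates, Benjamini-Hochberg adjustment, threshold 0.05, mean normalized count of at least 0.5), after tests on simulated data. Normalized counts are CPM scaled to the mean library size of 26419982. Correlations used log2 CPM (prior count 2) minus the group mean. Named genes were the 10 members, called members of the clock lists, up to 5 per list and comparison, the 5 genes most and the 5 least correlated with Arntl, and Sirt6. Some listed genes enter the counts but are not reported here by name. Replicates are different animals, and no pair within a group agreed within sampling noise (chi-square per gene of at least 13.3). Alternatives were other scalings and filters, DESeq2 1.42.0, the replicate block, and each library left out in turn. Intervals over libraries cover the spread between mice.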

Additional observations from a re-analysis of the deposited data

Results flagged for a closer look

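The values of the 10 clock genes and Sirt6 were checked in each of the 4 groups of 7 mice, 44 groups of values in all, for a mouse whose gap to its nearest neighbour was above Dixon's 95% limit for 7 samples, as a share of the range of the group. For independent, normally distributed values such a gap occurs in about 1 of 20 groups. These counts were not log-transformed and the clock genes covaried between mice, so that rate is only a rough guide. In all, 5 such gaps were found. Female SIRT6-tg mouse 1 had 188 normalized counts of Arntl, against 24.2 to 86.9 in the other 6 mice of its group, and 2200 of Nr1d2, against 3340 to 3880. Female SIRT6-tg mouse 5 had 283 of Cry1, against 131 to 194. Male WT mouse 6 had 44.5 of Sirt6, against 70.0 to 85.5, and female WT mouse 1 had 164 of Sirt6, against 47.7 to 77.8. The genotype effect on Sirt6 differed between the sexes in edgeR's interaction test, by 3.29 on the log2 scale (male minus female, adjusted p = 6.96e-06).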

How the results depend on the processing

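The number of clock genes called stayed at 0 in all 5 comparisons under other scalings, filters, DESeq2, and the replicate block, and without single libraries it stayed at 0 in 4 of them and ranged from 0 to 2 between male and female SIRT6-tg mice. Replicate numbers did not pair the mice (r of −0.35 to 0.33 over 42 pairs, 12 above 0.1, 3 best with their own number), and the replicate block gave 29 correlated pairs against 24. In single groups 11 (male WT), 6 (female WT) and 13 (female SIRT6-tg) pairs passed, where only 7 mice enter, and 24 to 27 without single libraries.

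Listed clock and output genes called between male genotypes numbered 2, but 6 by library size alone and 1 to 4 without single libraries (4 without male WT 2 or male SIRT6-tg 6, 1 without male SIRT6-tg 2, 4, 5 or 7). In females DESeq2 called 2. For the difference between the sexes library size alone called 2 and DESeq2 1. Between WT sexes the 6 became 3 to 7 (3 without male WT 4 or female WT 5), and between SIRT6-tg sexes the 9 became 8 to 12. The cause was not tested. Leaving out libraries for these lists, and Per2 as a second reference gene, were chosen after seeing the data. Of the 10 clock genes, Arntl had the fewest reads (16 to 157 raw counts).

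Uncalled log2 fold changes changed sign by library size alone, which moved the median of all genes by construction. Between male genotypes these were Arntl (−0.16), Clock (−0.15), Per2 (−0.12), Nr1d1 (−0.16), and Nr1d2 (−0.16). For the difference between the sexes they were Per1 (−0.23), Per2 (−0.04), Cry1 (−0.04), and Nr1d2 (−0.08). They were Per3 (0.07) and Nr1d2 (0.01) between WT sexes, and Cry1 (−0.05) and Nr1d2 (−0.08) between SIRT6-tg sexes. Upper-quartile scaling gave −0.01 for Per1 in the difference between the sexes, and −0.03 for Cry1 and −0.05 for Nr1d2 between SIRT6-tg sexes, and DESeq2 gave −0.00 for Per1 in the difference.

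In female WT mice alone the r of Arntl and Nr1d2 was 0.26, of Per1 and Dbp 0.00, and of Dbp and Nr1d2 −0.25.

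Without single libraries, log2 fold changes that changed sign ranged as follows. Between female genotypes Arntl ranged from −0.22 to 0.32, Per2 from −0.19 to 0.09, Per3 from −0.05 to 0.29, Cry1 from −0.07 to 0.13, Dbp from −0.23 to 0.11, and Tef from −0.21 to 0.01. Between male genotypes Arntl ranged from −0.22 to 0.25, Per3 from −0.17 to 0.15, and Nr1d1 from −0.01 to 0.22. In the difference between the sexes Arntl ranged from −0.35 to 0.32, Per1 from −0.12 to 0.27, Per3 from −0.33 to 0.04, and Nr1d1 from −0.18 to 0.05. Between WT sexes Per2 ranged from −0.02 to 0.19 and Per3 from −0.29 to 0.03, and between SIRT6-tg sexes Cry1 ranged from −0.03 to 0.16 and Nr1d2 from −0.06 to 0.06.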
